A study of Mus musculus with 47 samples.

Results

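The genes of 6 inhibitors of cyclin-dependent kinases were followed on mouse small intestine arrays: Cdkn1a, Cdkn1b, Cdkn1c, Cdkn2b, Cdkn2c and Cdkn2d. A probe set, the array's unit of measurement, was taken when its single annotated gene symbol was one of these names, which gave 8 of the 45101 probe sets in the table, for 6 of 18193 genes, and each probe set was kept apart. RNA from crypts and villi was measured on 47 arrays. In a genetic study, C57BL/6 mice aged 3 months and fed the purified diet Ain76A were p21-/- (Cdkn1a knockout), Apc1638N/+ (heterozygous for a mutant allele of the tumour suppressor Apc) or wild type. In a dietary study, wild-type mice received NWD2, NWD1 or Ain76A for 1 year from weaning, and both NWD diets are purified diets of a Western type. There were 4 arrays for each tissue and condition, except 3 for NWD2 villi. Both mutant alleles are germline alleles, carried by crypts and villi alike. The labels do not say whether replicate arrays came from separate animals, so p-values measure the spread between these samples, which may be technical.

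Cyclin-dependent kinases, once bound by a cyclin, drive cells from G1 into DNA synthesis by phosphorylating the retinoblastoma protein. The Cip/Kip inhibitors p21, p27 and p57, encoded by Cdkn1a, Cdkn1b and Cdkn1c, bind complexes of cyclins with their kinases, whereas the Ink4 inhibitors p15, p18 and p19, encoded by Cdkn2b, Cdkn2c and Cdkn2d, bind Cdk4 and Cdk6 themselves. In the small intestine, dividing cells lie in the crypts and leave the cell cycle as they move onto the villi, where Cdkn1a is a known marker of cells that have stopped dividing.

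Levels are normalized log2 values, and blanks are cells with no deposited value. Levels of different probe sets are not comparable with each other. Measured probe sets numbered from 14758 to 23296 per array. Crypts and villi were checked by the mean of 5 proliferation markers minus that of 16 enterocyte markers, those measured on every array. This difference lay between -4.03 and 0.03 in crypts and between -5.95 and -3.85 in villi, and within each condition every crypt array lay above every villus array. An NWD2 crypt array at -4.03 fell within the range of villi of other conditions. Crypt arrays on NWD2 (-4.03 to -1.87) lay below those on Ain76A at 1 year (-1.10 to 0.03), with no overlap. Among wild-type crypts at 3 months, array 1 stood at -0.60 and arrays 2 and 4 at -2.83 and -2.77. Of the 9 stroma and smooth muscle markers, 3 to 6 were blank on every array of a group. In bulk tissue, fewer cells of a type and less RNA per cell cannot be told apart.

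**Figure D1:**
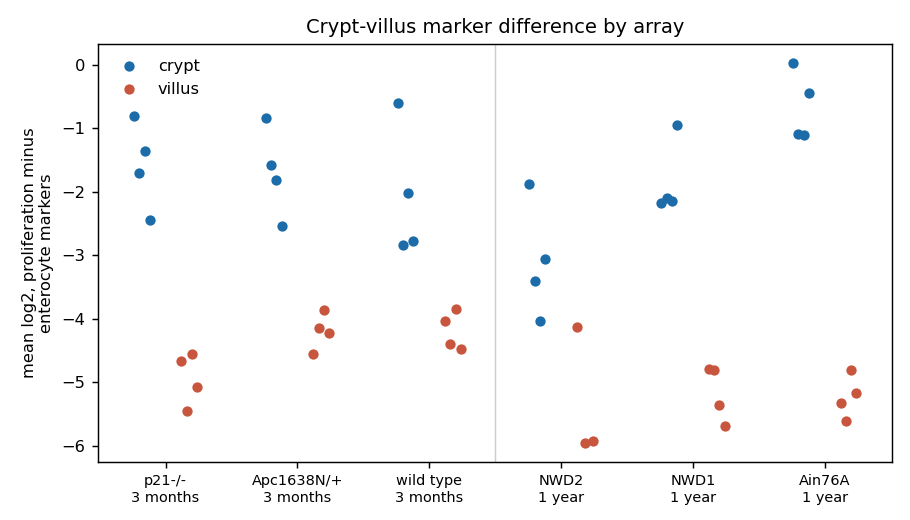
Mean normalized log2 level of 5 proliferation markers minus that of 16 enterocyte markers on each array (points), for crypts (blue) and villi (red) of each condition. Crypts lie above villi in every condition, and the NWD2 crypts reach down to -4.03.

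Cdkn1a, encoding p21, is induced by p53 and by differentiation signals. RefSeq (GRCm38.p6) lists 2 starts for it, both on the plus strand of chromosome 17, and the 250 bases before each start are shown because this is the gene whose absence defines p21-/- mice. In the window before the upstream start, capitals mark the letters ACATGT, any 4 bases and ACATGT again, which form the core of a p53 site, and in the other window they mark GC boxes (GGGCGG), the motif bound by Sp1. The windows are chr17:29090729-29090978 and chr17:29093519-29093768, 5′ to 3′.
Cdkn1a upstream start: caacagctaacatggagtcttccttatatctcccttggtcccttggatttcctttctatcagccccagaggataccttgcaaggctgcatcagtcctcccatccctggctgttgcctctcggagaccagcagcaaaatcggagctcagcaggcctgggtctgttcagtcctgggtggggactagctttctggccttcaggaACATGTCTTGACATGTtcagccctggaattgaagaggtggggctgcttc
Cdkn1a downstream start: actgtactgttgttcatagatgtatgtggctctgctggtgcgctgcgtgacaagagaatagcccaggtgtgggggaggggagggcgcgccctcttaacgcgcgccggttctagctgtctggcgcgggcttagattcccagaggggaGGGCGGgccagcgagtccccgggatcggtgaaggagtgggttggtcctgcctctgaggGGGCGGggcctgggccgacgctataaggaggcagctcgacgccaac

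The p53 core, searched on both strands, was found in 4 of the 32851 RefSeq windows of that length (0.0122%), and it begins 49 bases before the upstream Cdkn1a start. It was searched for after the Cdkn1a window had been read. The GC box occurred in 10756 windows (32.7%), including that before the downstream Cdkn1a start, with 2 matches. Of the 6 genes, 5 matched RefSeq windows, 7 windows in all, and no matches overlapped. The E2F letters TTTCCCGC, TTTGGCGC, TTTCGCGC and TTTGCCGC, present in 611 windows (1.86%), were in none of the 7. A match is a description of letters and not of binding.

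One Cdkn1a probe set was blank on every p21-/- array, and the other was measured on every one. Probe set 1421679_a_at was blank on all 4 crypt and all 4 villus arrays of p21-/- mice and measured on all 39 other arrays. Of 9398 probe sets measured on every array other than the p21-/- ones, it was the 1 that was blank on all p21-/- arrays (0.0106%). Blanks in p21-/- crypts alone were more common: 417 of 15204 probe sets measured on every wild-type crypt array (2.74%) were blank on all 4, against 10 of 13490 (0.0741%) in villi. The second probe set, 1424638_at, was measured on every array and read 11.24, 11.81, 11.57 and 12.17 in p21-/- crypts, against 11.43, 12.96, 12.63 and 12.85 in wild-type crypts. Its level in p21-/- villi was 13.17, 13.39, 12.69 and 13.18, against 12.70, 12.85, 12.40 and 12.98 in wild-type villi. The genotypes overlapped in both tissues. A probe set outside the deleted part of a gene checks nothing about a knockout, and the position of these probes relative to the deletion was not used here.

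**Figure D2:**
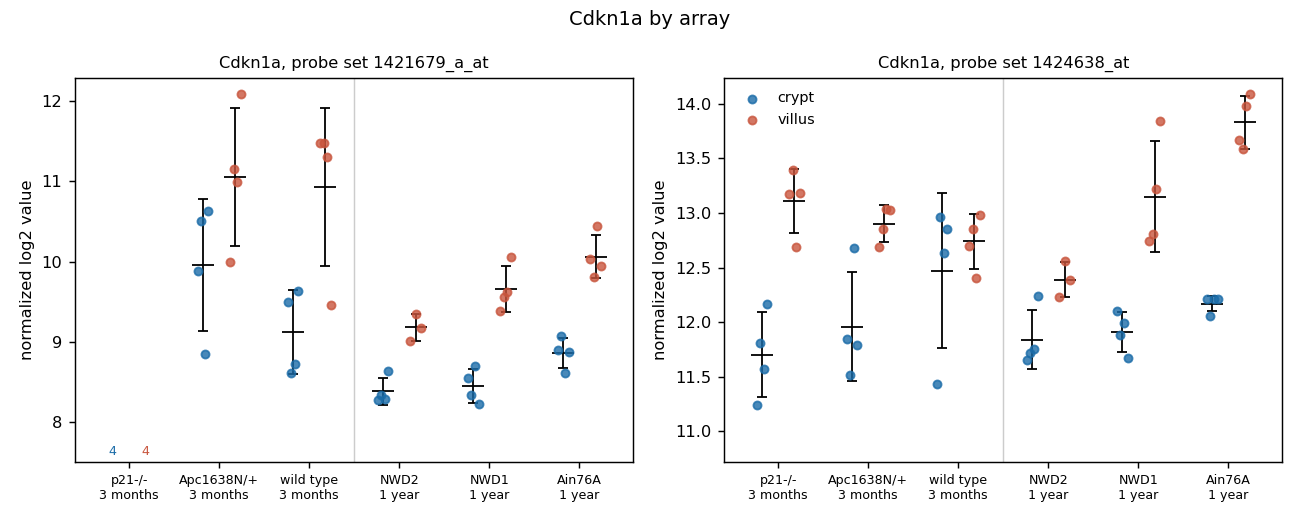
Normalized log2 level of each Cdkn1a probe set on every array, crypts in blue and villi in red, with the mean and SD as a bar, and a small number giving blank arrays. The left panel has no values in p21-/- mice, in which 1421679_a_at was blank on all 8 arrays, and the right panel has 1424638_at on all 47.

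In order of group means, 1421679_a_at was highest in Apc1638N/+ villi (11.06 ± 0.86, SD, n = 4) and lowest in NWD2 crypts (8.38 ± 0.17, SD, n = 4). Wild-type villi came next to the top (10.93 ± 0.99), followed by Ain76A villi at 1 year (10.06 ± 0.27) and Apc1638N/+ crypts (9.96 ± 0.82). NWD1 villi (9.66 ± 0.29) and NWD2 villi (9.18 ± 0.17) lay lower. Between neighbours in this order, the step from NWD1 to NWD2 villi and that from Ain76A crypts (8.86 ± 0.19) to NWD1 crypts (8.45 ± 0.21) exceeded the larger SD of the pair, and no other step did. For 1424638_at the highest group was Ain76A villi at 1 year (13.83 ± 0.24) and the lowest p21-/- crypts (11.70 ± 0.39). Only 2 of its 11 steps between neighbours exceeded the larger SD, from Ain76A to NWD1 villi (13.15 ± 0.51) and from NWD2 villi (12.39 ± 0.16) to Ain76A crypts (12.17 ± 0.07).

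The first comparison asked how the inhibitors differ between dividing and differentiated compartments. Cdkn1a was called lower in crypts than in villi in 4 of the 5 conditions with 1421679_a_at values and in 4 of 6 by 1424638_at. The 4 by 1424638_at include p21-/- mice, in which this gene is knocked out, and not wild-type mice at 3 months. What 1424638_at measures in p21-/- mice was not tested. Cdkn2c was called higher in crypts in 5 of 6. Called probe sets, at an adjusted p under 0.05 over all probe sets tested, were 2 of 6 tested members in wild type (44.4% of all probe sets called), 3 of 6 in Apc1638N/+ (37.4%), 2 of 4 in p21-/- (42.7%), 4 of 7 on Ain76A at 1 year (47.6%), 3 of 7 on NWD1 (37.6%) and 1 of 7 on NWD2 (11.1%). These shares are near those of all probe sets, so the counts alone are not a result about the inhibitors. The median member difference, crypt minus villus, lay between -0.74 in Apc1638N/+ and -0.16 in p21-/-, against -0.20 to 0.04 for all probe sets.

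Wild-type crypts read 9.49, 8.61, 8.72 and 9.63 for Cdkn1a 1421679_a_at, against 11.48, 11.48, 11.30 and 9.46 in wild-type villi. Villus array 4 lay within the crypt range and the other villus arrays above it. The log2 difference was -1.82 ± 0.36 (SE), 3.52-fold lower in crypts (adjusted p = 0.000125). Apc1638N/+ crypts had 9.88, 10.50, 8.85 and 10.63, against 9.99, 11.16, 10.99 and 12.09 in Apc1638N/+ villi, again with overlap. That difference was -1.09 ± 0.36 (adjusted p = 0.0166), and it lost its call without crypt array 3 (-0.72, adjusted p = 0.112), without villus array 4 (-0.75, 0.116) or in a fit on only the compared groups (0.106).

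On the diets at 1 year the compartments separated cleanly for 1421679_a_at. Ain76A crypts had 8.90, 9.07, 8.61 and 8.87, against 10.03, 9.81, 10.44 and 9.95 in Ain76A villi, a difference of -1.19 ± 0.36 (adjusted p = 0.00664). NWD1 crypts had 8.55, 8.33, 8.70 and 8.23, against 9.38, 9.56, 9.62 and 10.06 in NWD1 villi, a difference of -1.20 ± 0.36 (adjusted p = 0.00865). NWD2 crypts had 8.27, 8.33, 8.29 and 8.63, against 9.01, 9.35 and 9.17 in NWD2 villi. All 3 NWD2 villus arrays exceeded all 4 crypt arrays, and the difference of -0.80 ± 0.39 did not pass the test (adjusted p = 0.192).

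For 1424638_at, crypts were called lower than villi in 4 of the 6 conditions. In p21-/- mice, whose values are given above, the difference was -1.41 ± 0.25 (adjusted p = 1.76e-05) and the compartments did not overlap. Ain76A crypts at 1 year read 12.21, 12.06, 12.21 and 12.21, against 13.67, 13.59, 13.98 and 14.09 in Ain76A villi, a difference of -1.66 ± 0.25, or 3.16-fold lower in crypts (adjusted p = 5.16e-07). These crypt arrays were nearly alike and all lay far below the villi. NWD1 crypts read 12.10, 11.88, 11.99 and 11.67, against 12.74, 12.81, 13.22 and 13.84 in NWD1 villi, a difference of -1.24 ± 0.25 (adjusted p = 0.000123). Apc1638N/+ crypts read 11.85, 11.52, 12.68 and 11.79, against 12.69, 12.85, 13.04 and 13.03 in Apc1638N/+ villi, a difference of -0.94 ± 0.25 (adjusted p = 0.00261). Neither pair of groups overlapped, although Apc1638N/+ crypt array 3 nearly reached the lowest villus array. NWD2 crypts read 11.65, 11.72, 11.75 and 12.24, against 12.23, 12.56 and 12.39 in NWD2 villi, and overlapped in 1 array of each. The test was not passed on NWD2 (-0.55 ± 0.27, adjusted p = 0.185) or in wild-type mice at 3 months (-0.27 ± 0.25, adjusted p = 0.395). The wild-type value turned to 0.08 without crypt array 1, and with crypt arrays 2 and 4 both left out it was -0.70 and called (adjusted p = 0.045).

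Cdkn2c, encoding the Cdk4 and Cdk6 inhibitor p18, was higher in crypts in 5 of 6 conditions, opposite to Cdkn1a. Of its 2 RefSeq windows on the minus strand of chromosome 4, that at chr4:109666757-109667006 is shown, since it holds 3 GC boxes (capitals) and the other, 109665373 to 109665622, none.
Cdkn2c: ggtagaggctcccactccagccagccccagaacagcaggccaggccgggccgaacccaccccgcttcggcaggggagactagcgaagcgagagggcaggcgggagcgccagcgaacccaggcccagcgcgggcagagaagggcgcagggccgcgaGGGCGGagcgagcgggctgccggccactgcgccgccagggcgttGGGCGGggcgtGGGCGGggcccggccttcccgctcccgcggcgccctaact

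Ain76A crypts at 1 year had Cdkn2c levels of 9.86, 9.98, 9.45 and 9.41, against 8.40, 8.24, 8.85 and 8.37 in Ain76A villi. No crypt array overlapped a villus array, and the difference was 1.21 ± 0.22, or 2.32-fold higher in crypts (adjusted p = 1.26e-05). Apc1638N/+ crypts had 9.68, 9.57, 9.90 and 9.07, against 8.32, 8.23 and 7.98 on the 3 measured Apc1638N/+ villus arrays, where 1 array was blank. The difference there was 1.38 ± 0.24 (adjusted p = 1.37e-05), again without overlap. In p21-/- mice, crypts had 9.31, 9.77, 10.01 and 10.05, against 9.20, 8.88, 8.84 and 8.62 in villi, a difference of 0.90 ± 0.22 (adjusted p = 0.000932). On the NWD diets the crypt range was 9.14 to 9.52 on NWD2, against 8.18 to 8.77 in NWD2 villi, and 9.07 to 9.87 on NWD1, against 8.50 to 9.13 in NWD1 villi. The differences were 0.81 ± 0.24 on NWD2 (adjusted p = 0.0196) and 0.73 ± 0.22 on NWD1 (adjusted p = 0.00762). The NWD2 call was lost without 4 of the 7 arrays singly (crypt array 1 or 4, villus array 2 or 3), with adjusted p up to 0.186. It was also lost with the replicate number as a block, which pairs crypts and villi on NWD2 (0.74, adjusted p = 0.055). Wild-type crypts at 3 months, with 9.42, 8.83, 9.38 and 9.01, overlapped wild-type villi, with 9.18, 8.79, 9.23 and 9.58 (difference -0.04 ± 0.22, adjusted p = 0.906).

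The other inhibitors gave 2 calls between compartments. Cdkn1b, encoding p27, was lower in wild-type crypts by 1434045_at, with 10.66, 9.07, 9.86 and 9.67, against 10.73, 11.55, 11.87 and 9.69 in wild-type villi. The groups overlapped, the difference was -1.15 ± 0.40 (adjusted p = 0.0187), and the call was lost without crypt array 2, villus array 2 or villus array 3 (adjusted p up to 0.106). It was also lost with crypt arrays 2 and 4 both left out (-0.70, adjusted p = 0.243). Cdkn2b, encoding p15, an inhibitor induced by TGF-beta, read 11.04, 11.35, 11.21 and 11.44 in Ain76A crypts at 1 year, against 11.53, 11.65, 11.57 and 12.06 in Ain76A villi. All crypt arrays lay below all villus arrays, with a difference of -0.45 ± 0.16 (adjusted p = 0.0203), and the call was lost without crypt array 1 (-0.37) or villus array 4 (-0.33).

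**Figure D3:**
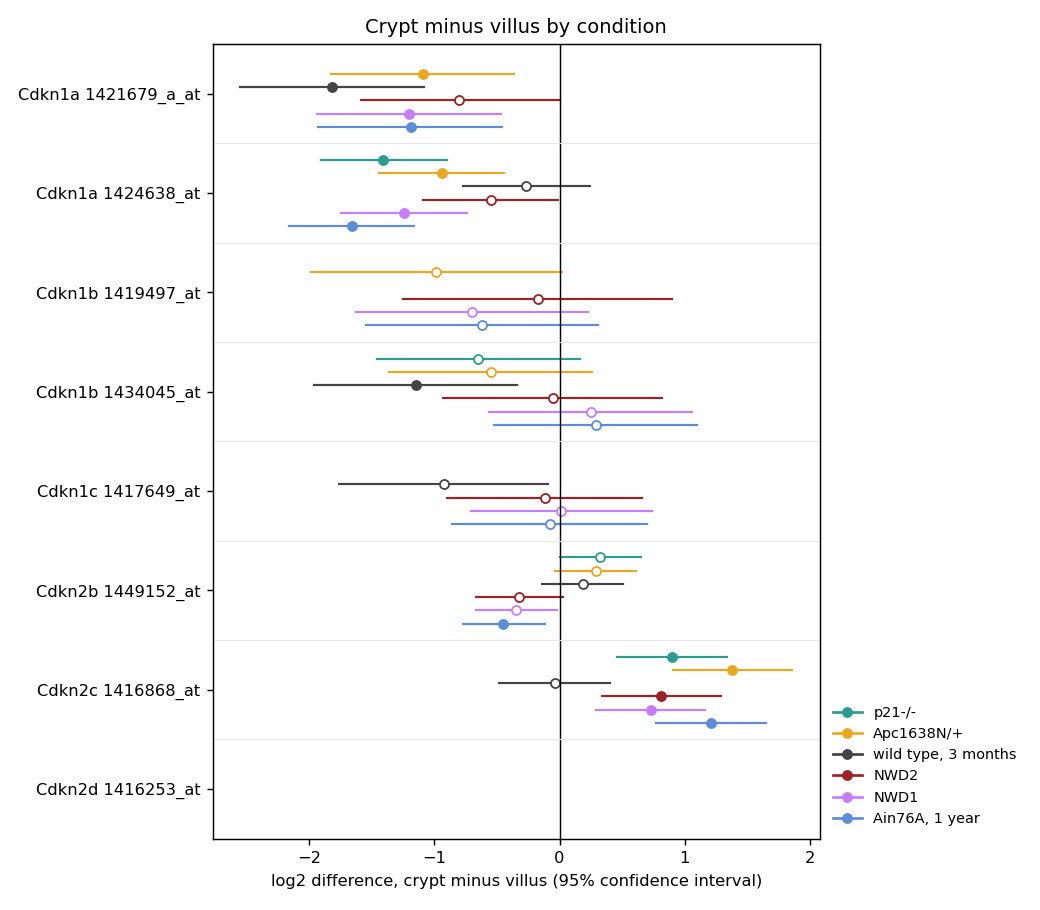
Log2 difference, crypt minus villus, of each member probe set in each condition, with its 95% confidence interval from limma. Filled points passed an adjusted p of 0.05, and rows without points were not tested. Cdkn1a points lie left of 0 and Cdkn2c points right of 0 except in wild-type mice at 3 months, where Cdkn2c is at -0.04.

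The 3 probe sets of Cdkn1b (1419497_at), Cdkn1c and Cdkn2d were low and often blank. Cdkn1b 1419497_at was measured on 41 of 47 arrays, 18 of 24 crypt and all 23 villus arrays, at 6.78 to 10.42. Cdkn1c, encoding p57, was measured on 17 of 24 crypt and 20 of 23 villus arrays, at 7.07 to 9.80. Cdkn2d, encoding p19, was measured on 23 of 47 arrays, 14 in crypts and 9 in villi, at 7.73 to 9.54.

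Group means of Cdkn1b 1434045_at ran from 9.61 in p21-/- crypts to 11.05 in Apc1638N/+ villi, with no step between neighbours above the larger SD. Those of Cdkn2b ran from 11.19 ± 0.20 in wild-type villi to 12.05 ± 0.07 (SD, n = 3) in NWD2 villi, and those of Cdkn2c from 8.17 ± 0.18 (SD, n = 3) in Apc1638N/+ villi to 9.79 ± 0.34 in p21-/- crypts.

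The blanks fell unevenly. Cdkn2d was measured on 15 of 23 arrays of the dietary study and on 8 of 24 of the genetic study, and it was blank on all 4 wild-type villus arrays. Both Cdkn1c and Cdkn2d were measured on 3 of 4 wild-type crypt arrays and on 0 of 4 p21-/- crypt arrays. Among all 18172 probe sets measured on at least 3 wild-type crypt arrays, 6.15% were blank on every p21-/- crypt array. The p21-/- crypt arrays also had the fewest measured probe sets (14758 to 17315, against 19034 to 22020 in wild-type crypts), and the part of this in the blanks was not tested. None of these 3 probe sets was called between compartments in the fit over all groups. For Cdkn1b 1419497_at the difference ranged from -0.99 ± 0.50 in Apc1638N/+ (adjusted p = 0.115) to -0.17 ± 0.53 on NWD2. It was called in the fit on only the compared groups, by -0.62 on Ain76A at 1 year (adjusted p = 0.015) and by -0.70 on NWD1 (0.0163), and without Apc1638N/+ villus array 1 in that genotype (-1.38, 0.0299). Cdkn1c differed by -0.92 between wild-type crypts and villi (adjusted p = 0.066).

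**Figure D4:**
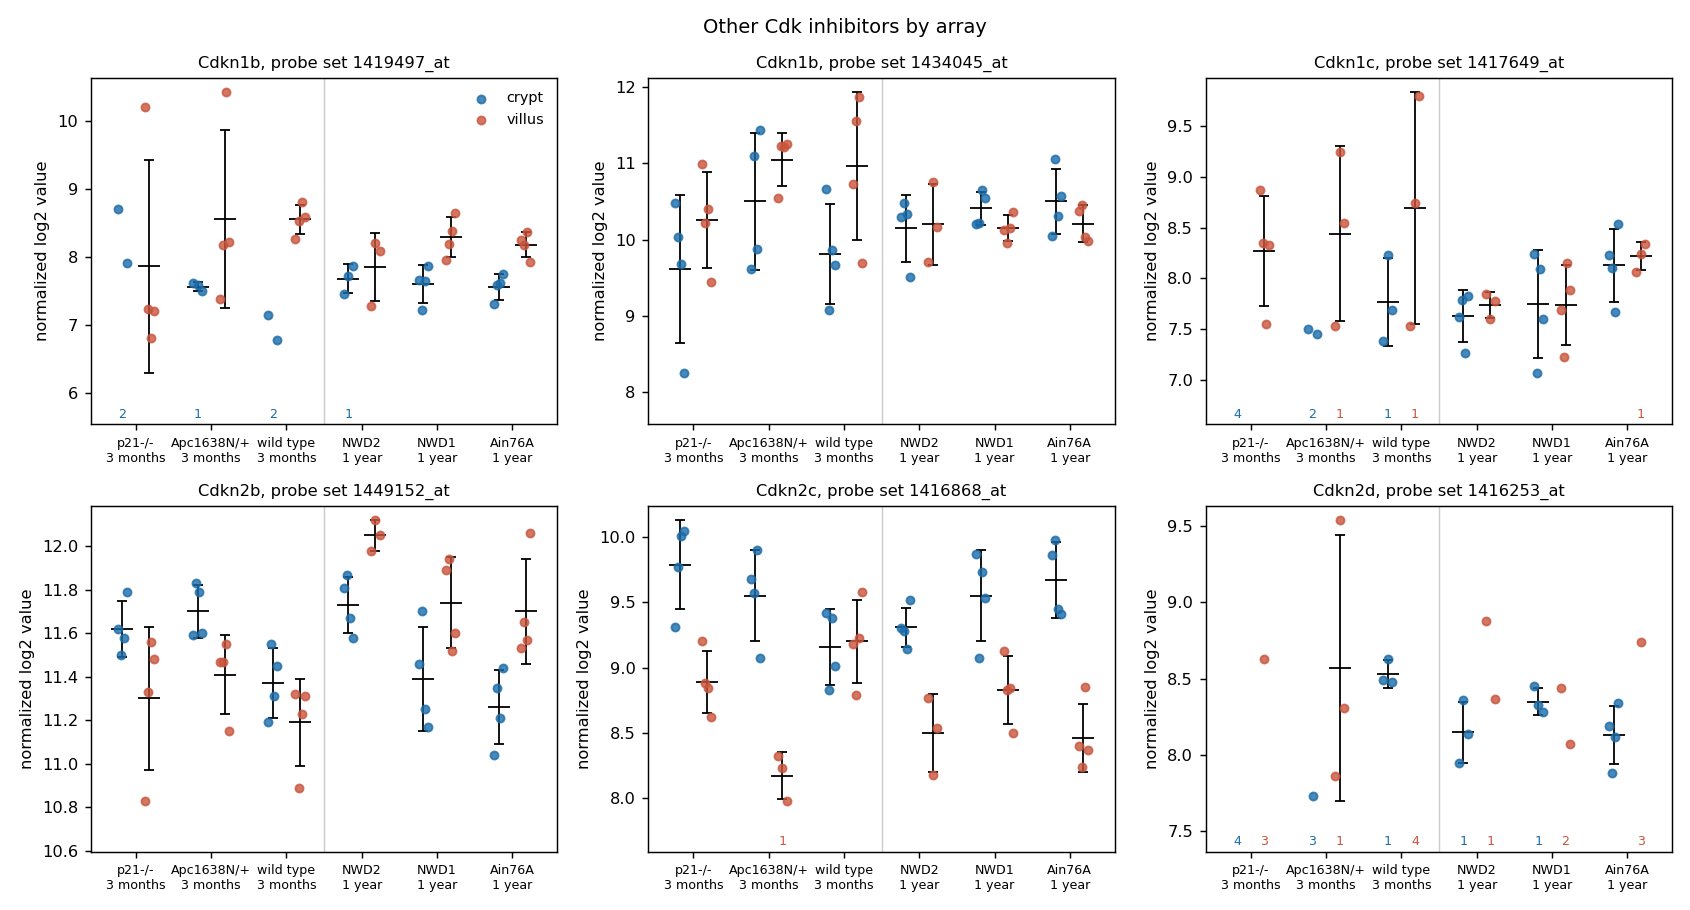
Normalized log2 level of the other 6 member probe sets on every array, crypts in blue and villi in red, with mean and SD where at least 3 arrays were measured. Small coloured numbers at the foot count the blank arrays of a group, which are most frequent for Cdkn2d (24 of 47).

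The second comparison asked what loss of Cdkn1a or a mutant Apc allele did to the inhibitors. By limma's adjusted p no member was called against wild type: 0 of 4 tested in p21-/- crypts (5.55% of all probe sets called), 0 of 6 in p21-/- villi (0.0325%), 0 of 5 in Apc1638N/+ crypts (0.129%) and 0 of 7 in Apc1638N/+ villi (0%). At an unadjusted p under 0.05 the counts were 2, 0, 2 and 1. Among all probe sets they were 2757 of 13173, 1749 of 15380, 1928 of 14698 and 901 of 15553. Both genotypes share the wild-type arrays. Cdkn1a 1424638_at came nearest in p21-/- crypts, at -0.77 ± 0.25 (adjusted p = 0.0572). It was called with the deposited scaling (-1.02, adjusted p = 0.0186), with trimmed-mean scaling (-0.90, 0.0276), without wild-type crypt array 1 (-1.12, 0.00653) and without p21-/- crypt array 4 (-0.93, 0.0237). With wild-type crypt arrays 2 and 4 both left out it was -0.33 (adjusted p = 0.553), and with the marker difference as a covariate -0.62 (0.0812). In p21-/- villi the same probe set differed by 0.37 ± 0.25 (adjusted p = 0.58). The crypt-villus difference was -1.41 in p21-/- mice and -0.27 in wild-type mice, and the test of this contrast gave -1.14 ± 0.35 (adjusted p = 0.0641, 2.25% of probe sets called). The contrast was called with the deposited scaling (-1.52, adjusted p = 0.0242), with trimmed-mean scaling (-1.29, 0.0352), without wild-type crypt array 1 (-1.49, 0.0105) and without p21-/- crypt array 4 (-1.30, 0.0279). With wild-type crypt arrays 2 and 4 both left out it was -0.70 (adjusted p = 0.305).

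No other inhibitor that was tested was called higher in p21-/- mice. Too few arrays were measured to test Cdkn1c or Cdkn1b 1419497_at in crypts, or Cdkn2d in either tissue. On the 2 measured crypt arrays of each genotype, Cdkn1b 1419497_at read 8.70 and 7.91 in p21-/-, against 7.14 and 6.78 in wild type. Cdkn2c in p21-/- crypts had 9.31, 9.77, 10.01 and 10.05, against 9.42, 8.83, 9.38 and 9.01 in wild-type crypts. In all, 3 of 4 p21-/- arrays lay above every wild-type array (0.63 ± 0.22, adjusted p = 0.0784), and without p21-/- array 1 the difference was 0.78 and called (adjusted p = 0.0381). With wild-type crypt arrays 2 and 4 both left out it was 0.38 (adjusted p = 0.427). Cdkn1b 1434045_at (-0.20 ± 0.40) and Cdkn2b (0.25 ± 0.16) did not pass in p21-/- crypts.

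Apc1638N/+ villi had the lowest Cdkn2c, 8.32, 8.23 and 7.98, against 9.18, 8.79, 9.23 and 9.58 in wild-type villi. No Apc1638N/+ array reached a wild-type one, and the difference of -1.02 ± 0.24 had an unadjusted p of 8.53e-05 and an adjusted p of 0.19. Cdkn1a 1421679_a_at in Apc1638N/+ crypts differed by 0.85 ± 0.36 from wild type (adjusted p = 0.297) and by 1.22 and called without Apc1638N/+ crypt array 3. The other Cdkn1a probe set there differed by -0.51 ± 0.25 (adjusted p = 0.377). That value was -0.85 and called without wild-type crypt array 1 (adjusted p = 0.0421), and -0.07 with wild-type crypt arrays 2 and 4 both left out (adjusted p = 0.948).

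**Figure D5:**
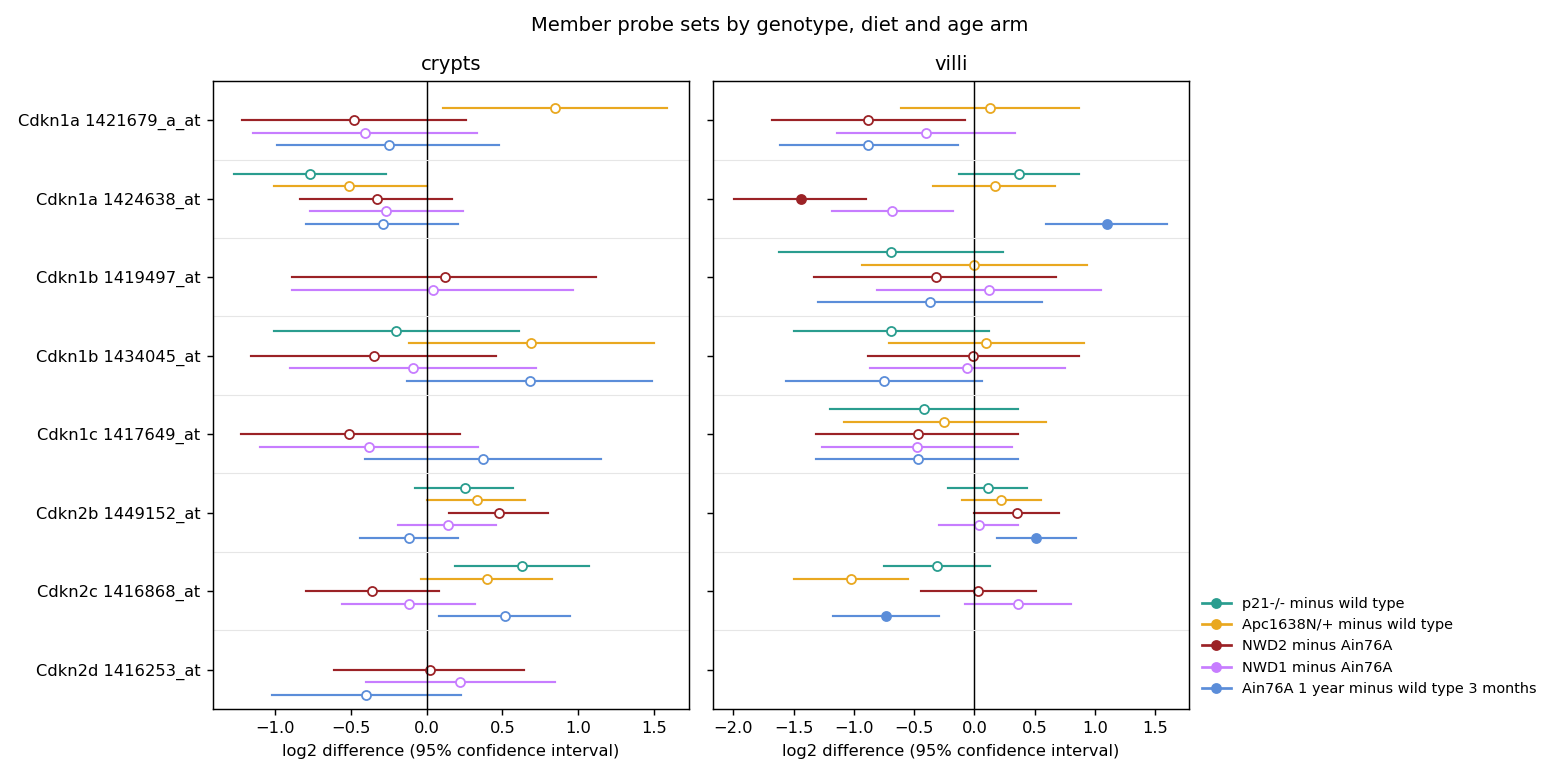
Log2 difference of each member probe set between conditions, within crypts (left) and villi (right), with its 95% confidence interval from limma. Filled points passed an adjusted p of 0.05. They are Cdkn1a 1424638_at for NWD2 (-1.44) and for 1 year against 3 months (1.10) in villi, with Cdkn2b (0.51) and Cdkn2c (-0.73) for 1 year against 3 months.

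The third comparison set each Western-type diet against Ain76A at 1 year. Cdkn1a 1424638_at, the probe set also measured on every p21-/- array, was lower in NWD2 villi, the single call among the 6 diet comparisons. The comparisons of NWD2 and NWD1 with Ain76A share the Ain76A arrays. NWD2 villi had 12.23, 12.56 and 12.39, NWD1 villi 12.74, 12.81, 13.22 and 13.84, and Ain76A villi 13.67, 13.59, 13.98 and 14.09. NWD2 arrays lay below all others, and NWD1 arrays spanned the gap and overlapped Ain76A. The NWD2 minus Ain76A difference was -1.44 ± 0.27, or 2.72-fold lower (adjusted p = 0.0103). In all, 1 of 7 tested members was called in a comparison that called 0.186% of all probe sets. The call was lost without Ain76A villus array 4 (adjusted p = 0.053), NWD2 villus array 1 (0.0507) or NWD2 villus array 3 (0.0573). With the marker difference of each array as a covariate it was -1.48 (adjusted p = 0.00201). The log2 of the summed level of the 3 of 8 lymphocyte markers measured on every array was 12.20 to 12.60 in NWD2 villi, against 13.71 to 14.70 in Ain76A villi, and that of 6 of 7 goblet cell markers 17.66 to 17.76, against 17.83 to 18.19. That of 3 of 8 enteroendocrine markers was 12.66 to 13.07, against 13.52 to 14.00, although their mean levels overlapped. None of these lists had a marker blank on every array of these groups or overlapped between them in summed level. Summed levels of the proliferation, enterocyte, Paneth cell, myeloid and crypt base columnar cell markers measured on every array did overlap between these groups. The part of any of these lists in the Cdkn1a difference was not tested beyond the marker covariate.

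By 1424638_at, NWD1 villi did not pass against Ain76A (-0.68 ± 0.25, adjusted p = 0.841, 0 of 7 members, 0.0429% of probe sets called), nor NWD2 against NWD1 villi (-0.76 ± 0.27, adjusted p = 1, 0 of 7, 0.0222%). Cdkn1a 1421679_a_at in villi differed by -0.88 ± 0.39 on NWD2 (adjusted p = 0.391) and by -0.40 ± 0.36 on NWD1 (adjusted p = 1), the same sign as the other probe set. All 3 NWD2 villus arrays were below all 4 Ain76A villus arrays for both Cdkn1a probe sets.

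In crypts limma called no member on either diet: 0 of 8 for NWD2 (5.56% of probe sets called), 0 of 8 for NWD1 (0%) and 0 of 8 for NWD2 against NWD1 (0.0156%), with 1, 0 and 1 at an unadjusted p under 0.05. Of all probe sets, 3925 of 18750, 610 of 19156 and 1293 of 19244 were under that unadjusted p. Cdkn2b was nearest, with 11.81, 11.87, 11.67 and 11.58 in NWD2 crypts, against 11.04, 11.35, 11.21 and 11.44 in Ain76A crypts. These groups did not overlap, and the difference was 0.48 ± 0.16 (adjusted p = 0.0707). It passed with the deposited scaling (0.67, adjusted p = 0.0203), the stricter filter (0.0476) and the fit on only the compared groups (0.025). NWD2 crypts also had 12 of 16 enterocyte markers higher (median difference 1.48) and 5 of 14 proliferation markers lower (median -1.10) than Ain76A crypts. The marker differences of the 2 groups do not overlap, and with them as a covariate 1 of 18750 probe sets was called, against 1043 without, so diet and marker difference cannot be told apart in these crypts.

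The fourth comparison was between Ain76A mice at 1 year and wild-type mice at 3 months on the same diet. The 2 ages belong to different arms, and age cannot be told apart from arm. In villi 3 of 7 members were called (14.4% of probe sets), and in crypts 0 of 7 (12.2%), where limma gave 1 at an unadjusted p under 0.05. Of all probe sets in crypts, 4825 of 17168 were under that unadjusted p. Cdkn1a 1424638_at read 13.67, 13.59, 13.98 and 14.09 in villi at 1 year, against 12.70, 12.85, 12.40 and 12.98 at 3 months. The ages did not overlap, and the difference was 1.10 ± 0.25 (adjusted p = 0.003). The other Cdkn1a probe set, 1421679_a_at, had 10.03, 9.81, 10.44 and 9.95 in villi at 1 year, against 11.48, 11.48, 11.30 and 9.46 at 3 months. It went the other way, with overlap from wild-type villus array 4 alone (-0.88 ± 0.36, adjusted p = 0.101), and without that array it was -1.37 and called (adjusted p = 0.00635).

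Since the 2 Cdkn1a probe sets moved apart, their difference on each array (1424638_at minus 1421679_a_at) was compared between conditions, a comparison chosen after the values were seen. In villi it was 3.78 ± 0.26 at 1 year, against 1.80 ± 1.15 at 3 months (SD, n = 4 each), a contrast of 1.97. The ranges, 3.54 to 4.14 and 1.10 to 3.52, did not overlap (2-sided exact permutation p = 0.0286, the smallest that 4 against 4 arrays allow, adjusted over 8 comparisons 0.228). Other contrasts of this difference had exact p of 0.0571 or above. That of 0.0571, for NWD2 against Ain76A villi, is the smallest that 3 against 4 arrays allow (adjusted 0.228). The ranges there, 3.21 to 3.22 and 3.54 to 4.14, did not overlap either. The difference in levels of 2 probe sets is not a ratio of transcripts.

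Cdkn2b was higher in villi at 1 year, with 11.53, 11.65, 11.57 and 12.06, against 11.32, 10.89, 11.23 and 11.31 at 3 months (0.51 ± 0.16, adjusted p = 0.0266), without overlap. Cdkn2c was lower in villi at 1 year, with 8.40, 8.24, 8.85 and 8.37, against 9.18, 8.79, 9.23 and 9.58 at 3 months (-0.73 ± 0.22, adjusted p = 0.0196), overlapping in 1 array of each age. With the marker difference as a covariate the values were 0.46 (adjusted p = 0.0671) and -0.60 (0.0784), and both calls were also lost without several single arrays. Cdkn1a 1424638_at stayed called with that covariate (0.78, adjusted p = 0.0244). The log2 of the summed level of the 3 lymphocyte markers was 13.71 to 14.70 in villi at 1 year, against 15.63 to 16.34 at 3 months, without overlap, and none of the 8 listed was blank on every array of either group. That of 3 of 8 enteroendocrine markers was 13.52 to 14.00 at 1 year, against 14.82 to 15.42, and that of 2 of 6 myeloid markers 9.15 to 10.06, against 10.33 to 10.98. That of the 16 enterocyte markers was higher at 1 year, 19.38 to 19.52, against 19.06 to 19.27. Of the 6 myeloid markers, 4 were measured on every villus array at 1 year and 2 on every one at 3 months. None was blank on every array of either group. Summed levels of the proliferation, goblet cell, Paneth cell and crypt base columnar cell markers measured on every array overlapped between the ages. Beyond the marker covariate, the part of these lists in the villus differences was not tested.

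The crypt-villus difference itself was compared between ages. For Cdkn1a 1424638_at it was -1.66 on Ain76A at 1 year and -0.27 in wild type at 3 months, a contrast of -1.39 ± 0.35 (adjusted p = 0.0123). For Cdkn2c it was 1.21 at 1 year and -0.04 at 3 months, a contrast of 1.25 ± 0.31 (adjusted p = 0.0106). In all, 2 of 6 tested members were called, beside 9.58% of probe sets. With wild-type crypt arrays 2 and 4 both left out, which had the lowest marker differences among those crypts, the contrasts were -0.95 (adjusted p = 0.147) and 1.01 (0.0928). In the 4 other contrasts of this kind limma called no member, with 2 of 4 tested in p21-/-, 1 of 5 in Apc1638N/+, 1 of 7 on NWD2 and 0 of 7 on NWD1 at an unadjusted p under 0.05. Of all probe sets, 2177 of 11801, 988 of 12854, 2706 of 16348 and 420 of 16797 were under that unadjusted p. For Apc1638N/+ against wild type the Cdkn2c contrast was not called (1.42 ± 0.32, adjusted p = 0.111, 0.0156% called). Those for NWD2 and NWD1 against Ain76A called 0.116% and 0% of probe sets.

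Genes downstream and upstream of the inhibitors were read in the same fits. Of 19 listed G1 and S phase genes, 18 had a probe set, and 10 of 17 tested were higher and 3 lower in Ain76A crypts at 1 year than in villi (median 1.33, against 0 for all genes), where 26.5% and 25.1% of all genes were. Cyclin D1 (Ccnd1), which activates Cdk4 and Cdk6, averaged 11.32 in those crypts and 8.70 in villi (2.62, adjusted p = 8.57e-07). Cdk4 averaged 11.25 in crypts and 8.76 in villi (2.49, adjusted p = 1.51e-08), and the replication clamp Pcna 13.73 and 11.87. Ccnd1, Ccnd2, Cdk4 and Pcna were called higher in crypts in all 6 conditions. None of the G1 and S phase genes tested was called in p21-/- or Apc1638N/+ mice against wild type, 15 tested in p21-/- crypts, 13 in p21-/- villi, 16 in Apc1638N/+ crypts and 13 in Apc1638N/+ villi. In NWD2 crypts against Ain76A crypts, 1 of 18 tested was higher and 3 lower, where 4.48% and 2.26% of all genes were. The lower genes were Ccnd2 (-1.24, adjusted p = 0.0173), Pcna (-0.66, adjusted p = 0.0437) and the mitotic kinase Cdk1 (-1.40, adjusted p = 0.0115, named after its value was seen), and the higher was the retinoblastoma gene Rb1 (0.65, adjusted p = 0.0319). With the marker covariate, which left 1 probe set called in all, these values were -0.43, -0.18, -0.06 and 0.27. Pcna and Ccnb1 are also on the list of proliferation markers. Markers of that list measured on every array enter the covariate, which may therefore include Pcna itself. In crypts at 1 year against 3 months, 5 of 18 tested were higher and 2 lower, where 6.31% and 5.09% of all genes were. The S phase cyclins Ccne1 (1.15, adjusted p = 0.0231) and Ccna2 (1.21, adjusted p = 0.0363) and the retinoblastoma relative Rbl1 (0.71, adjusted p = 0.028) were among the higher. Cdk6 (-1.01, adjusted p = 0.0231) and Rb1 (-0.69, adjusted p = 0.0134) were the lower. In the same crypts 9 of 16 enterocyte markers were lower and 3 of 14 proliferation markers higher. Without wild-type crypt arrays 2 and 4 the share of all probe sets called was 1.11% in place of 12.2%, and none of the 7 genes was called, with Ccne1 at 0.80 (adjusted p = 0.29), Ccna2 at 0.59 (0.604), Rbl1 at 0.50 (0.386), Cdk6 at -0.85 (0.276) and Rb1 at -0.67 (0.139). The other higher genes, named after their values were seen, were Ccne2 (1.25, adjusted p = 0.0263) and Cdk1 (1.33, 0.00994). Without those arrays they were 1.40 (adjusted p = 0.133) and 0.72 (0.408). That fit has fewer wild-type crypt arrays, so a lost call can also come from less precision. With the marker covariate 2.49% of probe sets were called, and of the 7 genes Cdk6 alone (-1.35, adjusted p = 0.0189).

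Among genes that regulate the inhibitors, 24 of 25 listed had a probe set. Cks1b, a partner of the ubiquitin ligase subunit Skp2 that marks p27 for breakdown, was higher in crypts in all 6 conditions, by 4.38 in p21-/- mice (adjusted p = 5.26e-10). Skp2 itself was 2.83 higher in p21-/- crypts than villi (adjusted p = 2.83e-07). The p21-/- minus wild-type contrast of its crypt-villus difference was 2.19 ± 0.57 (adjusted p = 0.0323). With wild-type crypt arrays 2 and 4 both left out that contrast was 1.86 (adjusted p = 0.0985). Klf4, a transcription factor of differentiated epithelium that activates Cdkn1a, was lower in crypts in all 6 conditions, with a difference of -2.40 on Ain76A at 1 year (adjusted p = 1.51e-08). Over the list, 6 of 21 tested were higher and 4 lower in Ain76A crypts at 1 year, against 26.5% and 25.1% of all genes. In p21-/- crypts against wild-type crypts, 1 of 21 tested was higher and 0 lower, where 3.52% and 1.78% of all genes were. It was Smad4 (0.67, adjusted p = 0.0285), named after its value was seen. Smad4 stayed called with wild-type crypt arrays 2 and 4 left out (0.84, adjusted p = 0.0242) and with the marker covariate (0.66, 0.0322). In crypts at 1 year against 3 months, 2 of 22 tested were higher and 1 lower, where 6.31% and 5.09% of all genes were. Myc, a repressor of Cdkn1a and Cdkn2b, was higher (1.56, adjusted p = 0.0146), as was the histone deacetylase Hdac1 (0.57, adjusted p = 0.0177, likewise named after its value was seen), and Foxo3, an activator of Cdkn1b, was lower (-1.08, adjusted p = 0.0197). Without wild-type crypt arrays 2 and 4 none of these was called, with Myc at 0.52 (adjusted p = 0.636), Hdac1 at 0.48 (0.249) and Foxo3 at -0.63 (0.365).

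Of 20 listed p53 target genes, 18 had a probe set. Mdm2, which is both a target and an inhibitor of p53, averaged 10.26 in p21-/- crypts and 8.94 in wild-type crypts (1.32, adjusted p = 0.022), the 1 call among 8 tested, where 3.52% of all genes were higher. With wild-type crypt arrays 2 and 4 both left out the difference was 1.38 (adjusted p = 0.0617). The log2 of the summed level of 2 of 6 myeloid markers was 12.94 to 13.57 in p21-/- crypts, against 10.79 to 12.37 in wild-type crypts, while 2 other myeloid markers were blank on every p21-/- crypt array. That of 2 of 8 Paneth cell markers was 17.05 to 17.34, against 15.88 to 16.93. Neither pair of ranges overlapped, and the part of these markers in the Mdm2 difference was not tested. Ranges of the proliferation, enterocyte, goblet cell, enteroendocrine, lymphocyte and crypt base columnar cell markers did overlap. The Mdm2 difference from villi was -0.12 in p21-/- crypts (adjusted p = 0.82) and -2.55 in wild-type crypts (adjusted p = 3.59e-07), and the p21-/- minus wild-type contrast was 2.43 ± 0.50 (adjusted p = 0.0118). The same contrast against wild type was 1.55 on Ain76A at 1 year (adjusted p = 0.0427) and 1.48 in Apc1638N/+ (0.446). All share the wild-type arrays. Without wild-type crypt arrays 2 and 4 it was 2.49 in p21-/- (adjusted p = 0.025) and 1.61 on Ain76A at 1 year (0.116). Mdm2 was also lower in villi at 1 year than at 3 months, with a difference of -1.23 (adjusted p = 0.0168). Trp53inp1, a p53 target that promotes arrest and cell death, was lower there as well (-1.29, adjusted p = 0.00841). In the p53 list 1 gene was higher and 3 lower of 11 tested in villi at 1 year, where 6.08% and 9.36% of all genes were (median -0.46, against -0.03 for all genes).

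Genes whose group means were most like those of each member are given as a description. For 1421679_a_at over 10 groups these were Baz2a, Rock1 and Pak2 (Pearson r from 0.983 to 0.986), and for 1424638_at over 12 groups Noct, Slc44a4 and Serpinb6a (0.922 to 0.928). The probe sets thus shared none of their 3 nearest genes. Cdkn2c was most like Fancl, Sf3b6 and Wdr43 over 11 groups (0.961 to 0.973), Cdkn2b like Pgk1, Iah1 and Ube2d3, and Cdkn1b 1434045_at like Pbrm1, Rap1b and Cnot6l over 12. These means share arrays and normalization, and each gene was picked from at least 7503 probe sets.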

How the data were processed

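Deposited log2 values of an Affymetrix array were used, made with GCOS per the submitters' processing notes, with no version given. Of all cells, 55.3% were blank, for a reason not given in the sources used here, and blanks were not filled. After leaving out 64 controls, arrays were quantile normalized (highest over lowest trimmed mean 1.46, above 1.2) on 8350 probe sets measured on every array, with others placed by interpolation. Probe sets above their array's median on at least 3 arrays were kept (30287, all 8 members). limma 3.58.1 (R 4.3.3) was fitted over the 12 groups, with a variance trend and Benjamini-Hochberg adjustment over all probe sets tested, those measured on at least 3 arrays per compared group. SEs, 95% intervals and adjusted p-values come from that fit over 23 comparisons, which was tested on simulated data. The number of arrays limits the precision. Exact permutation tests used scipy 1.17.1.

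A single gene symbol was given for 34945 probe sets, more than 1 for 932, and none for 9160. All member probe sets are named, with list genes chosen whatever their values and represented by the probe set measured on most arrays. Members, lists and rules were chosen with earlier results of these data known. Alternatives were other scalings, filters, model settings, a floor for blanks, a marker covariate, a replicate block and leaving out arrays. Fits that leave out arrays have less precision. The main fit paired no arrays, and the replicate block was an alternative only. Same-numbered crypt and villus arrays were read as pairs only from correlations of their deviations from group means. These were over 0.1 in every pair of Ain76A at 1 year (0.11 to 0.29) and NWD2 (0.30 to 0.49), and not in every pair of the other 4 conditions. NWD2 villus array 2 matched another number better (0.41) than its own (0.30). Promoter windows are from RefSeq, GRCm38.p6.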

Additional observations from a re-analysis of the deposited data

Results flagged for a closer look

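An array far from the rest of its group was looked for in 65 groups of 4 measured arrays, with 6 found, where chance gives about 1 in 20. For Cdkn1a 1421679_a_at, wild-type villus array 4 stood at 9.46, next to 11.30, and NWD2 crypt array 4 at 8.63, next to 8.33. For Cdkn1a 1424638_at, Ain76A crypt array 2 stood at 12.06, next to 12.21, and NWD2 crypt array 4 at 12.24, next to 11.75. NWD2 crypt array 4 was thus high for both Cdkn1a probe sets. For Cdkn1b, p21-/- villus array 1 stood at 10.20 on 1419497_at, next to 7.23, and Apc1638N/+ villus array 1 at 10.54 on 1434045_at, next to 11.21. Without p21-/- villus array 1 the Cdkn1b 1419497_at difference from wild-type villi was -1.46 and called.

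The crypt-villus difference departed between Ain76A at 1 year and wild type at 3 months by a test of the contrast itself for Cdkn1a 1424638_at (-1.39) and for Cdkn2c (1.25). Crypts on Ain76A at 1 year spanned marker differences of -1.10 to 0.03, against -2.83 to -0.60 in wild-type crypts at 3 months, and the part of this in the contrasts was tested only by leaving out arrays 2 and 4.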

How the results depend on the processing

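Across alternatives, single results of the member probe sets stayed on the same side of the threshold in 2473 repeats, gained a call in 44 and lost it in 31. The sign turned in 99 repeats of 39 results, none of them called before or after. Calls between crypts and villi numbered 15, 13 to 16 without single arrays, the fewest without Apc1638N/+ villus array 4. Calls by genotype numbered 0, 1 with the deposited scaling, 1 with trimmed-mean scaling, 2 with blanks set to a floor, and 0 to 2 without single arrays, the most without wild-type crypt array 1 or Apc1638N/+ crypt array 3. Calls by NWD diet numbered 1, 2 with the deposited scaling, 2 with a stricter filter chosen after seeing the data, 3 in the fit on only the compared groups, and 0 to 1 without single arrays, none without Ain76A villus array 4 or NWD2 villus array 1 or 3. Calls for 1 year against 3 months numbered 3, 1 with the marker covariate, and 1 to 4 without single arrays, the fewest without wild-type villus array 3 or Ain76A villus array 4 and the most without wild-type crypt array 1 or wild-type villus array 4. Calls of contrasts between crypt-villus differences numbered 2, 4 with the deposited scaling, 4 with trimmed-mean scaling, 0 with wild-type crypt arrays 2 and 4 left out, and 2 to 5 without single arrays, the most without wild-type crypt array 1. The causes were not tested.

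By the correlations of deviations, same numbers were read as pairs in Ain76A at 1 year and NWD2 alone. The replicate block also tied same-numbered wild-type arrays at 3 months, where these correlations were 0.05, 0.05, -0.24 and 0.12. Of all 23 pairs of crypt and villus arrays with the same number, deviations correlated by over 0.1 in 16 (range -0.24 to 0.55), and 11 matched their own number best. With the replicate block, calls numbered 15 between compartments, 1 by genotype, 1 by diet, 3 by age and 6 for the contrasts. The block changed 7 calls and left 140 as they were. Among the 7 were Cdkn1a 1424638_at in p21-/- crypts (adjusted p = 0.0402) and in the crypt-villus contrast of p21-/- (-1.14, adjusted p = 0.0485). Others were Cdkn2c between NWD2 crypts and villi (0.74, adjusted p = 0.055) and Cdkn1c between wild-type crypts and villi (-1.74, adjusted p = 0.000324). For Cdkn1c, wild-type crypt array 1 and villus array 3 were blank, so only numbers 2 and 4 had both values, without evidence that they are pairs.

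Blank cells limit Cdkn1c and Cdkn2d most, and 5 of 8 member probe sets passed the stricter filter.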
